A study of Drosophila melanogaster with 6 samples.

Results

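Mitochondrial ribosomal protein genes were taken as every gene in the deposited expression values whose symbol starts with mRpL or mRpS. The rule found 72 of 15603 listed genes, 46 of the large subunit (mRpL) and 26 of the small subunit (mRpS). All 72 were above 0 in all 6 libraries. In release 6 of the reference, 20 of them lie on chromosome arm 3R, 17 on 3L, 12 on 2L, 12 on 2R and 11 on X. The families were sorted by symbol alone. In mammals the homologues of mRpS30 and mRpS18A sit in the large subunit in spite of their names.

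Mitochondria carry their own ribosome, which translates the few messages of the mitochondrial genome, all of them for subunits of the respiratory chain and the ATP synthase. Its RNAs are made inside the organelle, while its proteins are encoded in the nucleus, translated in the cytosol and imported. Many of these proteins have homologues in bacterial ribosomes, and the others were added in the course of mitochondrial evolution. In the fly midgut, intestinal stem cells (ISCs) divide to give enteroblasts (EBs), which mature into enterocytes.

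The libraries came from escargot-positive cells, that is ISCs and EBs, sorted by GFP from about 100 pooled female guts each, from flies 7 days old. The number of sorted cells differed, with 24387 for w1118 and 16611 for HttQ138. It was 34129 for CncCRNAi and 37452 for CncCRNAi+HttQ138, and 62921 for attP2 against 34986 for Rpn3RNAi. In all genotypes esg::Gal4 with the temperature-sensitive repressor tub::Gal80ts drove UAS::GFP and any UAS transgene, and a shift to 29 °C started expression. The w1118 control carried the driver with no further transgene, HttQ138 added UAS::mRFP-HttQ138, an aggregation-prone human Huntingtin, CncCRNAi added an RNAi line against the transcription factor CncC (the KK101639 insertion), and CncCRNAi+HttQ138 added both, each for 2 days at 29 °C. The attP2 control carried the empty landing site, and Rpn3RNAi an RNAi construct (TRiP.HM05247) in that site against Rpn3, a lid subunit of the proteasome, each for 4 days. Each condition is 1 library, and no test between conditions was possible.

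Expression is in FPKM, fragments per kilobase of transcript and per mapped depth of the library, a level already divided by gene length. Depth was recovered from the steps of low values and came to 2780000 to 3640000 fragments a library. It gives each ratio of FPKM a 95% exact binomial (Clopper-Pearson) interval, here called the counting interval, which covers counting error only and not the spread between flies, dissections or libraries. mRpL33 and mRpL34 are too short for such an interval, which leaves 70 members with one. The level of cnc, the gene of CncC, in the library labelled CncCRNAi was 1.01 times that of w1118 (counting interval 0.926 to 1.10), and in CncCRNAi+HttQ138 it was 1.25 times that of HttQ138 (1.15 to 1.35). Rpn3 in Rpn3RNAi was at 0.820 times attP2 (0.703 to 0.954). The level of cnc thus shows no knockdown in the libraries labelled CncCRNAi, and CncC protein was not measured in them. Rpn3 was at 45.5 FPKM in w1118 and 71.0 with HttQ138, and at 37.7 in CncCRNAi and 33.1 with HttQ138 added to it. It was at 77.1 FPKM in attP2 and 63.2 in Rpn3RNAi, so its HttQ138 level lay below that of an unstressed control. The paper reports that HttQ138 did not raise Dacapo when this RNAi line was co-expressed. Wherever a direction is drawn from CncCRNAi or CncCRNAi+HttQ138, these names mean the libraries so labelled. The ISC and EB marker esg stood at 287 to 346 FPKM in all 6 libraries, values that make up most of the 494 to 560 FPKM summed over 8 ISC and EB markers. The other markers varied more, klu from 37.3 to 74.1 and N from 13.7 to 25.2 FPKM. Delta, the ligand that marks ISCs, stood at only 0.803 to 2.34 FPKM.

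In the 3 control libraries the members were expressed at a moderate and even level. Their median was 33.2 FPKM in w1118, 38.4 in CncCRNAi and 32.9 in attP2. With HttQ138 it was 38.1, with CncCRNAi and HttQ138 together 41.8, and in Rpn3RNAi 24.5. The summed FPKM of the 72 members was 2737 in w1118 and 3016 with HttQ138, 3192 in CncCRNAi and 3158 with HttQ138 added to it, and 2685 in attP2 against 2023 with Rpn3RNAi. As deposited, the HttQ138 sum lay inside the range of the 3 controls. With FPKM scaled to a common sum it did so too, at 1.15 times w1118 against 1.23 for CncCRNAi and 1.12 for attP2. With median-of-ratios scaling it lay above all controls, at 1.17 times w1118 against 1.06 for CncCRNAi and 0.924 for attP2, and likewise with scaling without the 100 highest genes (1.08 against 1.06 and 0.901). The Rpn3RNAi sum lay below all controls as deposited and under these scalings and that to a common sum. As a share of all summed FPKM, the family made up 0.343% in w1118 and 0.395% with HttQ138, 0.424% in CncCRNAi and 0.419% with HttQ138 added to it, and 0.385% in attP2 against 0.317% with Rpn3RNAi.

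**Figure D1:**
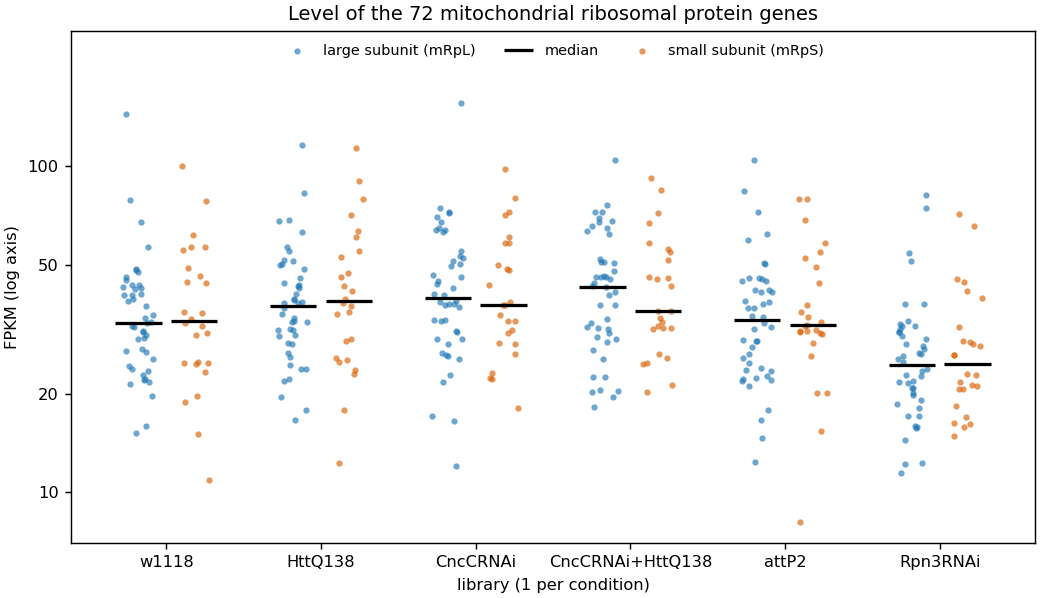
FPKM (log axis) of each of the 72 members in the 6 libraries, large subunit genes to the left and small subunit genes to the right of each label, with black bars at the medians. Both subunits have their lowest median in Rpn3RNAi, at 24.5 FPKM for the large and 24.7 FPKM for the small subunit.

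Large and small subunit genes were at similar levels. The median mRpS level divided by the median mRpL level was 1.01 in w1118 and 1.03 with HttQ138, 0.951 in CncCRNAi and 0.841 with HttQ138 added to it, and 0.961 in attP2 against 1.01 with Rpn3RNAi. The ratio of the 2 summed levels, which also reflects that more mRpL than mRpS genes are listed, stayed between 0.552 in CncCRNAi and 0.626 in HttQ138. In Rpn3RNAi it was 0.598, against 0.591 in its own control attP2, so the lower level there was shared by both subunits.

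Between members the level differed far more than between libraries. The order of the members was kept from library to library, with a Spearman's rho over the 72 genes of 0.797 to 0.903 in the 6 pairs compared, given as a description, since gene length and the mapping are shared by all libraries. mRpL33, a small protein of the large subunit with a bacterial homologue, had the highest mean, with 144 FPKM in w1118 and 116 with HttQ138, 156 in CncCRNAi and 105 with HttQ138 added to it, and 105 in attP2 against 74.4 with Rpn3RNAi. Its short transcript makes this level uncertain. The next in the large subunit were mRpL53 and mRpL39, which have no bacterial homologue, at 62.9 to 82.0 and at 54.3 to 72.2 FPKM. In release 6 all 829 exon bases of mRpL53 also belong to CG33155 on the same strand, so its reads cannot be assigned to one of the 2 genes.

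The highest members of the small subunit were mRpS5, mRpS28 and mRpS9. mRpS5, the homologue of bacterial S5, ranged from 70.9 FPKM in HttQ138 to 98.3 in CncCRNAi. mRpS28 was at 101 FPKM in w1118 and 114 with HttQ138, 72.3 in CncCRNAi and 66.8 with HttQ138 added to it, and 68.7 in attP2 against 65.7 with Rpn3RNAi, so the w1118 and HttQ138 libraries stood above the other 4. At the low end of the large subunit were mRpL10, the base of the stalk that recruits translation factors, at 11.4 to 18.3 FPKM, mRpL11, which lies beside it, at 12.1 to 21.2, and mRpL41, down to 12.2 in Rpn3RNAi. mRpL12, which forms the mobile part of the same stalk and is present in several copies on each bacterial ribosome, was at 32.3 to 65.4 FPKM. At the low end of the small subunit were mRpS35, at 15.1 to 25.8, mRpS18C, at 15.4 to 22.3, and mRpS14.

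The comparison of Rpn3RNAi with attP2 asks how these transcripts differ under RNAi against a proteasome subunit. Here 63 of the 72 members were lower and 9 higher. The median log2 ratio of FPKM + 1 was -0.45, against -0.11 over the 5503 genes with a mean of at least 10 FPKM in the 2 libraries. The summed FPKM was 0.753 of that in attP2 (counting interval 0.722 to 0.786), with 0.750 (0.710 to 0.792) for the large and 0.759 (0.709 to 0.814) for the small subunit. The difference of the 2 medians was -0.34 on the log2 scale. A scaling factor shifts members and other genes of a library alike, so this difference is fixed by construction, while the median of all genes itself lay between -0.11 and 0.06 under the scalings tried.

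At least 1.5-fold lower were 24 of the 72 members, where 17.2% of all genes tested were. At least 1.5-fold higher was 1 member, where 13.0% of all genes were. With FPKM scaled to a common sum the counts became 15 lower and 3 higher, where 11.6% and 17.5% of all genes were, and with median-of-ratios scaling 13 and 4, where 10.4% and 17.8% were. The counting interval lay below a ratio of 1 for 24 of the 70 members that have one, close to the 34.8% of all genes, and above 1 for 0 members, against 18.7% of all genes. By the interval, then, the share of lower members was near that of all genes, and higher members were scarcer. An interval call depends on the fragments of a gene, and these were not matched between the members and all genes. The interval shares therefore do not show whether the members differ from other genes. No member changed 3-fold, as 7.50% of all genes did. In 48 of the 72 members the lowest of the 6 libraries was Rpn3RNAi, compared with 28.8% of 5416 genes, a tally made after the values were seen.

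**Figure D2:**
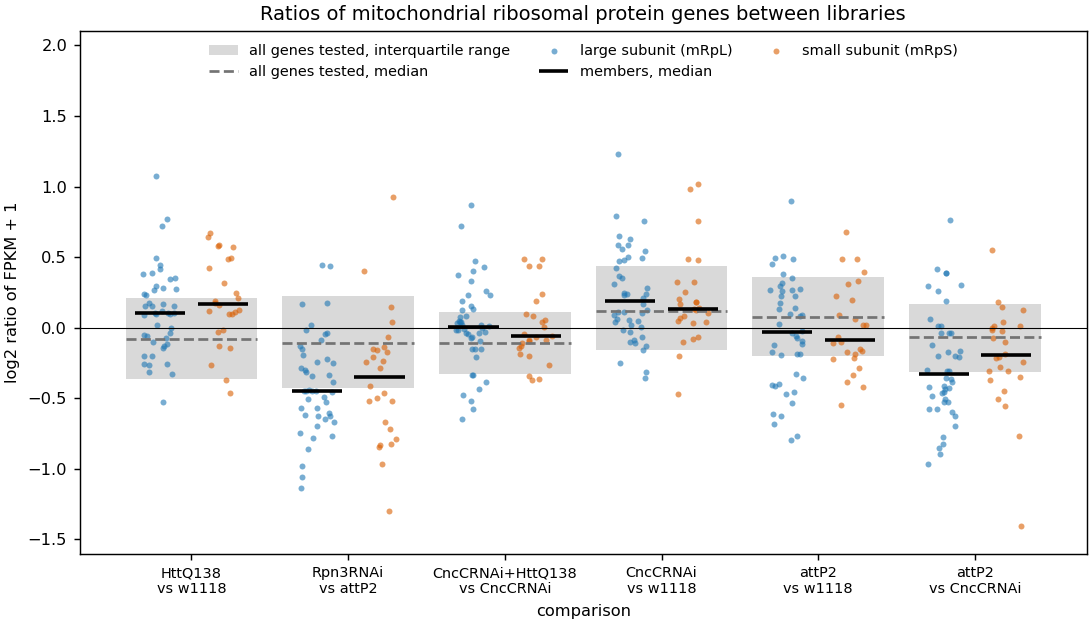
log2 ratio of FPKM + 1 of each member in the 6 comparisons, large subunit genes at the left and small subunit genes at the right of each position, with black bars at their medians, a grey band for the interquartile range of all genes tested and a dashed line at their median. In Rpn3RNAi against attP2 the members' medians, -0.45 for the large and -0.35 for the small subunit, lie below the dashed line at -0.11.

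The lowest ratios in Rpn3RNAi were those of mRpS16, mRpL28 and mRpL23, all 3 homologues of bacterial ribosomal proteins. mRpS16 was at 56.5 FPKM in w1118 and 90.4 with HttQ138, 60.8 in CncCRNAi and 71.9 with HttQ138 added to it, and 52.4 in attP2 against 20.7 with Rpn3RNAi. Its ratio of 0.396 (0.234 to 0.645) rests on about 22.5 fragments in Rpn3RNAi and 72.7 in attP2, and Rpn3RNAi stood below all other libraries. mRpL28 was at 44.8 FPKM in w1118 and 49.9 with HttQ138, 63.0 in CncCRNAi and 64.9 with HttQ138 added to it, and 84.3 in attP2 against 37.8 with Rpn3RNAi. Its ratio was 0.449 (0.356 to 0.563), but its own control was the highest of the 6 libraries, and mRpL28 was also 1.88-fold higher in attP2 than in w1118 (1.53 to 2.32). mRpL23, which lines the exit of the tunnel through which the new chain leaves, was at 45.7 FPKM in w1118 and 56.5 with HttQ138, 63.8 in CncCRNAi and 63.3 with HttQ138 added to it, and 44.6 in attP2 against 21.0 with Rpn3RNAi. Its ratio was 0.470 (0.285 to 0.752), with Rpn3RNAi again below every other library.

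Of the stalk proteins, mRpL12 was at 59.4 FPKM in attP2 and 32.3 in Rpn3RNAi, a ratio of 0.544 (0.385 to 0.758). The ratios of mRpL11, 0.578 (0.323 to 1.00), and mRpL10, 0.778 (0.447 to 1.33), had intervals that reached 1. The intervals of the core proteins around the peptidyl transferase centre reached 1 as well. Ratios were 0.722 (0.499 to 1.03) for mRpL2, 0.808 (0.616 to 1.05) for mRpL3 and 0.970 (0.661 to 1.42) for mRpL4. Among proteins without a bacterial homologue in the large subunit, mRpL41 was at 0.487 (0.249 to 0.903), mRpL44, which carries an RNase III fold, at 0.650 (0.482 to 0.870), and mRpL45, which in mammals holds the ribosome at the inner membrane, at 0.643 (0.492 to 0.835).

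In the small subunit, mRpS9 was at 56.6 FPKM in w1118 and 79.5 with HttQ138, 79.8 in CncCRNAi and 84.4 with HttQ138 added to it, and 79.5 in attP2 against 44.2 with Rpn3RNAi. Its ratio to attP2 was 0.556 (0.452 to 0.680), and w1118 was nearer to Rpn3RNAi than to the other 4 libraries. In release 6, 325 exon bases of mRpS9 are shared with ArgRS-m on the opposite strand, and the strand of the libraries is not given in the sources used here. mRpS7 had a ratio of 0.571 (0.406 to 0.793) and mRpS2 of 0.619 (0.425 to 0.890). mRpS30, named PDCD9 in mammals, was at 46.2 FPKM in w1118 and 54.8 with HttQ138, 58.0 in CncCRNAi and 54.4 with HttQ138 added to it, and 58.4 in attP2 against 32.1 with Rpn3RNAi. With its long transcript it had some of the narrowest intervals of the family, 0.549 (0.454 to 0.663) for Rpn3RNAi against attP2. mRpS29, the homologue of the mammalian GTPase DAP3, stood at 29.0 to 37.6 FPKM in all libraries, with a ratio of 0.894 (0.689 to 1.16).

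In the small subunit 4 members were higher, mRpS14, mRpS18C, mRpS31 and mRpS22, all with intervals that held 1. The ratio was 1.11 (0.868 to 1.41) for mRpS31 and 1.03 (0.824 to 1.29) for mRpS22. The intervals of several lower members held 1 too, with ratios of 0.900 (0.729 to 1.11) for mRpS5, 0.881 (0.556 to 1.38) for mRpS34 and 0.843 (0.571 to 1.24) for mRpS35. The 3 mRpS18 paralogs, all homologues of the same bacterial protein, were at 0.739 (0.388 to 1.37) for mRpS18A, 0.688 (0.461 to 1.01) for mRpS18B and 1.34 (0.693 to 2.61) for mRpS18C. The intervals of the 3 ratios overlap.

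The highest ratios in Rpn3RNAi belonged to mRpS14, mRpL9 and mRpL20. mRpS14 was at 10.9 FPKM in w1118 and 12.3 with HttQ138, 23.2 in CncCRNAi and 26.6 with HttQ138 added to it, and 8.12 in attP2 against 16.3 with Rpn3RNAi. Its ratio of 2.01 (0.985 to 4.26) was the only one past 1.5-fold upward, and it rests on 21.8 against 13.9 fragments. In release 6 it shares 255 exon bases with Naa15-16 on the opposite strand and 30 with CG32533 on the same strand. The ratios of mRpL9, 1.39 (0.803 to 2.42), and mRpL20, 1.38 (0.779 to 2.45), had intervals on both sides of 1.

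**Figure D3:**
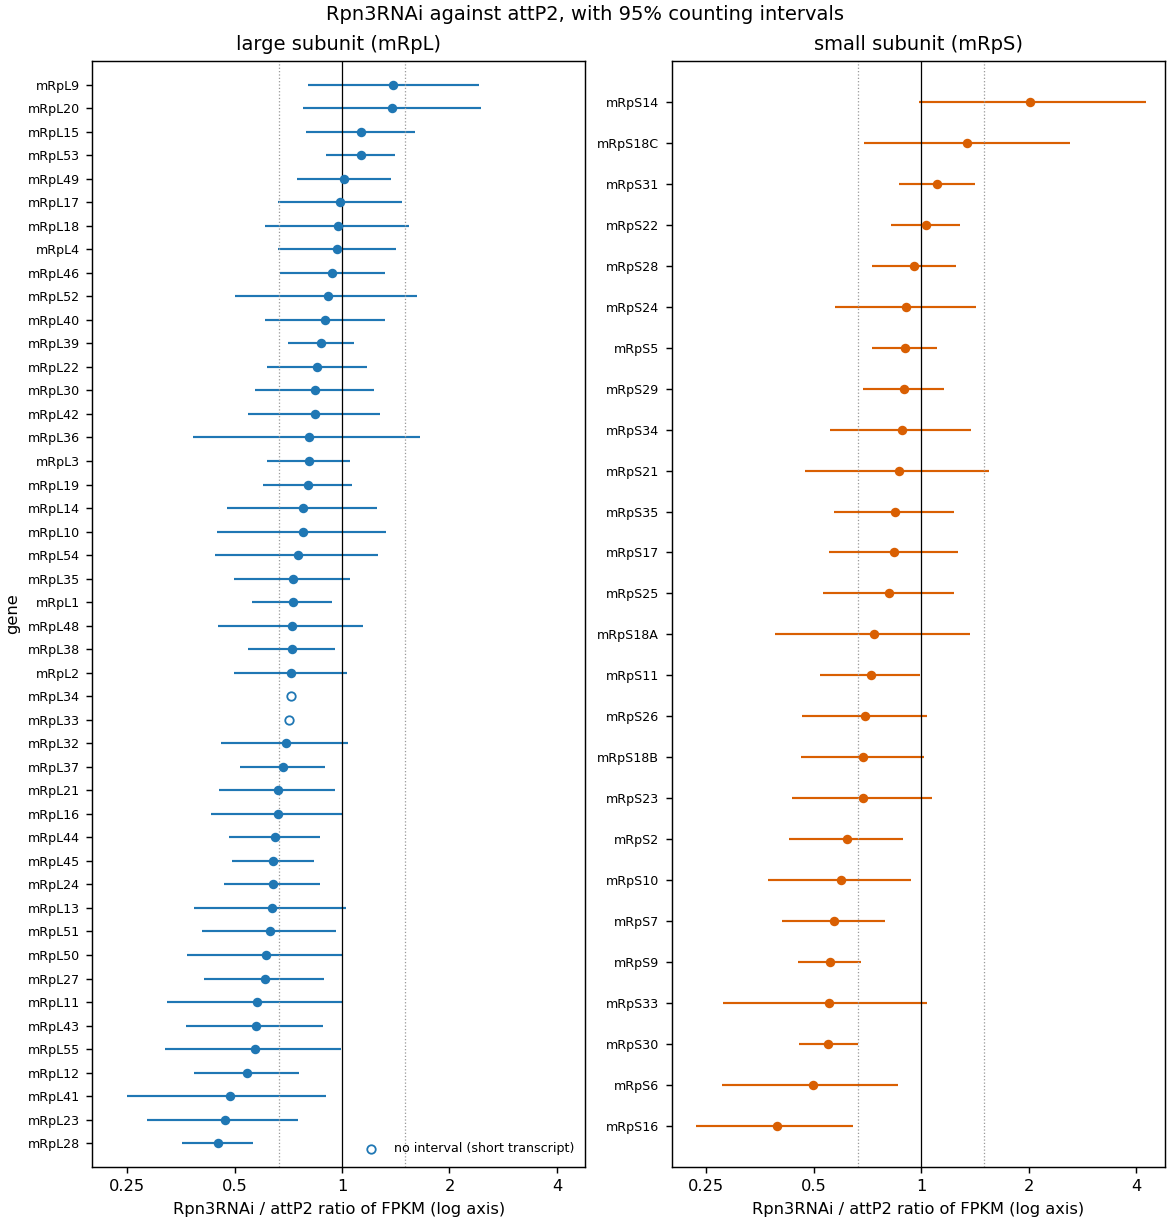
Ratio of FPKM in Rpn3RNAi to attP2 (log axis) for the large subunit genes, left, and the small subunit genes, right, in order of ratio, with 95% counting intervals as lines, open circles for mRpL33 and mRpL34, which have no interval, a solid line at 1 and dotted lines at 1.5-fold. Points run from 0.396 for mRpS16 to 2.01 for mRpS14, and 24 of 70 intervals end below 1.

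Cell type markers moved in the same comparison. Of the 5 ISC and EB markers tested, 2 were higher, and the median log2 ratio was -0.10. At least 1.5-fold lower was 1 of them, sna, at 17.6 FPKM in attP2 and 11.1 in Rpn3RNAi, and 0 were at least 1.5-fold higher. The summed FPKM of 10 enterocyte markers was 509 in attP2 and 7220 in Rpn3RNAi, against 467 in w1118, 1256 in HttQ138, 646 in CncCRNAi and 593 in CncCRNAi+HttQ138. Of the 8 tested between Rpn3RNAi and attP2, 6 were at least 1.5-fold higher, led by digestive enzymes such as alphaTry (135 and 3867 FPKM in attP2 and Rpn3RNAi) and betaTry (51.6 and 1923 FPKM). The enterocyte myosin Myo31DF was at 182 and 135 FPKM, and Tsp2A at 77.7 and 56.9. The transcription factor that defines enterocytes, nub, was at 4.47 and 6.29 FPKM. The 9 enteroendocrine markers summed to 109 FPKM in attP2 and 179 in Rpn3RNAi, and the 4 hemocyte markers to 4.81 and 7.55. The 7 visceral muscle markers went the other way, from 473 to 309 FPKM, most of it Tm1, at 466 and 292. The part of these cells, or of their RNA, in the lower mRp levels was not tested. In bulk samples fewer cells of a type and less RNA per cell cannot be told apart.

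The nuclear-encoded genes around the mitochondrial ribosome were lower in Rpn3RNAi as well. The list of the respiratory chain and ATP synthase has 89 genes, most of them for subunits that assemble with the products of mitochondrial translation. Of these, 62 could be tested. All 62 were lower than in attP2, 47 of them at least 1.5-fold, with a median log2 ratio of -0.72. ATPsynbeta, a catalytic subunit of the ATP synthase, was at 1115 FPKM in attP2 and 575 in Rpn3RNAi, and COX4, a subunit of cytochrome c oxidase, at 310 and 161. All 11 mitochondrial chaperones and proteases were lower, 7 of them at least 1.5-fold, with a median of -0.72. The chaperonin Hsp60A went from 216 to 35.6 FPKM and its partner CG11267, the homologue of Hsp10, from 334 to 97.3. The 9 mitochondrial tRNA synthetases tested had a median of -0.34, with 3 at least 1.5-fold lower. This list includes ThrRS and HisRS, which serve the cytosol as well, and ThrRS, at 196 and 109 FPKM, was 1 of those 3. All 3 mitochondrial translation factors tested were lower, 1 of them at least 1.5-fold, with a median of -0.48.

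A further 3 mitochondrial ribosomal proteins escape the symbol rule, tko and bonsai, the homologues of bacterial S12 and S15, and the gene deposited as Rlc1, which the reference now names mRpL47. bonsai was at 46.5 FPKM in attP2 and 18.2 in Rpn3RNAi, and Rlc1 at 23.5 and 10.5. tko was at 30.5 and 25.2. By contrast, the 10 tested genes of mitochondrial DNA maintenance and transcription had a median of -0.09, near that of all genes. Only 2 of the 10 were higher, among them TFAM, which packages the mitochondrial genome, at 47.8 and 54.3 FPKM. The 2 at least 1.5-fold lower were mtSSB, at 94.8 and 54.5 FPKM, and bsf, at 81.9 and 41.3. Cytosolic ribosomal proteins had a median of -0.25 over 84 genes, 9 of them at least 1.5-fold lower. The 37 genes of the mitochondrial genome itself are listed at 0 in all libraries and gave no value.

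**Figure D4:**
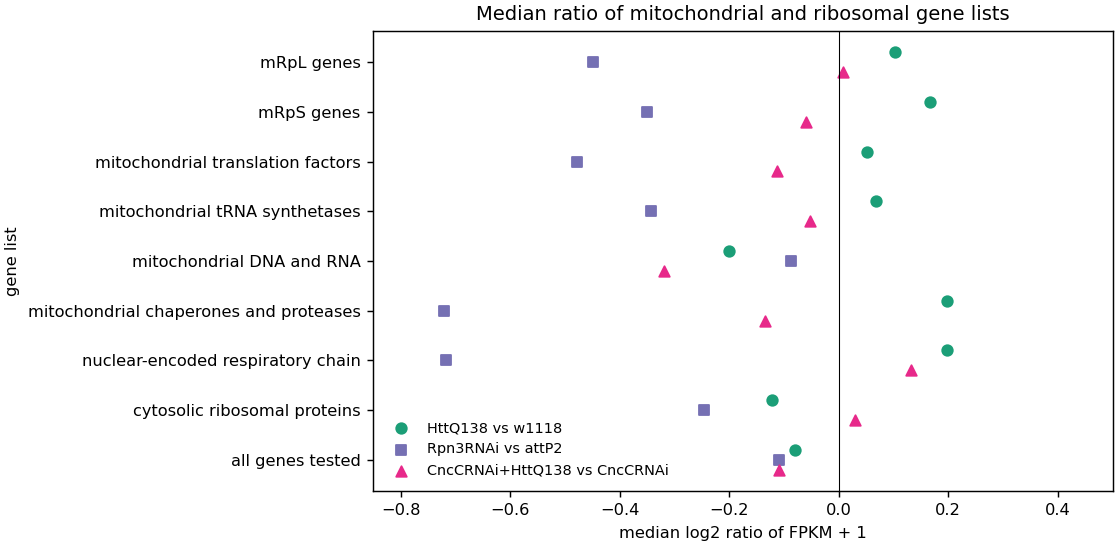
Median log2 ratio of FPKM + 1 of the mRp genes, of other mitochondrial gene lists, of cytosolic ribosomal proteins and of all genes tested, in the 3 comparisons of a stressed library with its own control. In Rpn3RNAi against attP2 the respiratory chain and the chaperones and proteases have the lowest medians, both -0.72, and all genes tested have -0.11.

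HttQ138 against w1118 asks for the effect of protein aggregates. Here 48 members were higher and 24 lower, with a median log2 ratio of 0.12 against -0.08 over all 5181 genes tested, a difference of 0.20, which a scaling of whole libraries cannot change. The summed FPKM was 1.10 times that of w1118 (1.06 to 1.15), with 1.08 (1.02 to 1.13) for the large and 1.15 (1.08 to 1.22) for the small subunit. As deposited, the library labelled CncCRNAi, a control, held 1.17 times the w1118 sum (1.12 to 1.21), and against it HttQ138 had a median of -0.06. The order of the 2 libraries depended on the scaling, since HttQ138 was the higher with median-of-ratios scaling, at 1.17 against 1.06 times w1118, and without the 100 highest genes, at 1.08 against 1.06. At a common sum HttQ138 was the lower, at 1.15 against 1.23 times w1118.

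Cell type markers moved in this comparison too. Of the 7 enterocyte markers tested, HttQ138 had 6 at least 1.5-fold higher. The median of their log2 ratios was 1.76, and the sum over all 10 was 1256 FPKM against 467 in w1118. alphaTry was at 131 FPKM in w1118 and 614 with HttQ138, nub at 1.47 and 3.81, and Myo31DF at 161 and 153. Of the 4 ISC and EB markers tested, 0 were at least 1.5-fold higher and 2 lower, with a median of -0.49. These were klu, a transcription factor of EBs, at 74.1 and 39.2 FPKM, and the receptor N (Notch), at 25.2 and 13.7, while Sox21a was at 102 and 134. The 9 enteroendocrine markers summed to 446 FPKM in w1118 and 277 with HttQ138, most of it NPF, at 396 and 167. The median level of the 9 was 1.36 FPKM in w1118 and 5.43 with HttQ138. Of the 4 enteroendocrine markers tested, 2 were at least 1.5-fold higher and 2 lower. The 4 hemocyte markers summed to 5.97 FPKM in w1118 and 9.76 with HttQ138, and the 7 visceral muscle markers to 378 and 388. The part of these cells, or of their RNA, in the mRp levels was not tested.

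At least 1.5-fold higher with HttQ138 were 8 members, at a background of 10.7% of all genes, and at least 1.5-fold lower 0, at a background of 14.4%. The counting interval lay above 1 for 9 of 70, at a background of 19.9%, and below 1 for 1, at a background of 29.6%. None passed 3-fold, at a background of 4.30%. Members at least 1.5-fold higher were thus about as common as among all genes. Of the 30 members that share no annotated exon base with another gene, 2 were at least 1.5-fold higher, and their median was 0.06.

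The largest step with HttQ138 was that of mRpL34, a very short protein with a bacterial homologue, at 38.7 FPKM in w1118 and 82.7 with HttQ138, 54.9 in CncCRNAi and 76.4 with HttQ138 added to it, and 29.0 in attP2 against 21.0 with Rpn3RNAi. Both libraries with HttQ138 stood above the other 4, the ratio being 2.14 against w1118 and 1.39 against CncCRNAi, for which the short transcript allows no interval. mRpL18, a homologue of a bacterial ribosomal protein, was at 19.8 FPKM in w1118 and 34.4 with HttQ138, 31.2 in CncCRNAi and 34.1 with HttQ138 added to it, and 22.4 in attP2 against 21.8 with Rpn3RNAi. Its ratio to w1118 was 1.74 (1.14 to 2.69), but the library labelled CncCRNAi was as high without HttQ138. mRpL32 was at 25.6 FPKM in w1118 and 42.8 with HttQ138, 37.9 in CncCRNAi and 47.8 with HttQ138 added to it, and 36.8 in attP2 against 25.6 with Rpn3RNAi, with a ratio of 1.67 (1.14 to 2.49).

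In the small subunit the intervals of 6 of 26 members lay above 1 with HttQ138, at a background of 19.9% of all genes. mRpS16 was at 1.60 times w1118 (1.18 to 2.19), mRpS18A at 1.58 (1.00 to 2.53), mRpS35 at 1.53 (1.05 to 2.26), mRpS25 at 45.7 against 30.4 FPKM (1.02 to 2.23), mRpS9 at 1.41 (1.17 to 1.69) and mRpS30 at 1.19 (1.01 to 1.40). In the large subunit it was so for 3 of the 44 with an interval, mRpL18, mRpL32 and mRpL3, the last at 1.42 (1.10 to 1.85). The other paralogs of mRpS18A had ratios of 1.07 (0.712 to 1.62) for mRpS18B and 0.909 (0.483 to 1.71) for mRpS18C.

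On the lower side, mRpL27, which reaches toward the peptidyl transferase centre in bacteria, was at 48.5 FPKM in w1118 and 33.3 with HttQ138, 52.4 in CncCRNAi and 51.0 with HttQ138 added to it, and 45.3 in attP2 against 27.6 with Rpn3RNAi. HttQ138 and Rpn3RNAi were its 2 lowest libraries, with ratios of 0.687 (0.484 to 0.970) and 0.609 (0.411 to 0.889) to their own controls. It was the 1 member whose interval lay on the same side of 1 in both stresses, at a background of 19.5%. The ratios of mRpS21, 0.718 (0.405 to 1.26), and mRpS17, 0.767 (0.501 to 1.17), had intervals on both sides of 1.

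The 2 stresses can be set side by side, member by member. Of the 72 members, 41 were higher with HttQ138 and lower with Rpn3RNAi, 22 were lower in both, 7 higher in both and 2 the reverse. Over the 4950 genes tested in both comparisons these shares were 25.9%, 37.0%, 16.8% and 20.4%. For mRpS9, mRpS16 and mRpS30 the interval lay above 1 with HttQ138 and below 1 with Rpn3RNAi, at a background of 8.28% of all genes. Over the members the log2 ratios of the 2 comparisons, which share no library, had a Pearson's r of -0.05, so that the size of one step said little about the other. The times at 29 °C differ, 2 days for HttQ138 and 4 days for Rpn3RNAi, and cannot be told apart from the kind of stress.

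**Figure D5:**
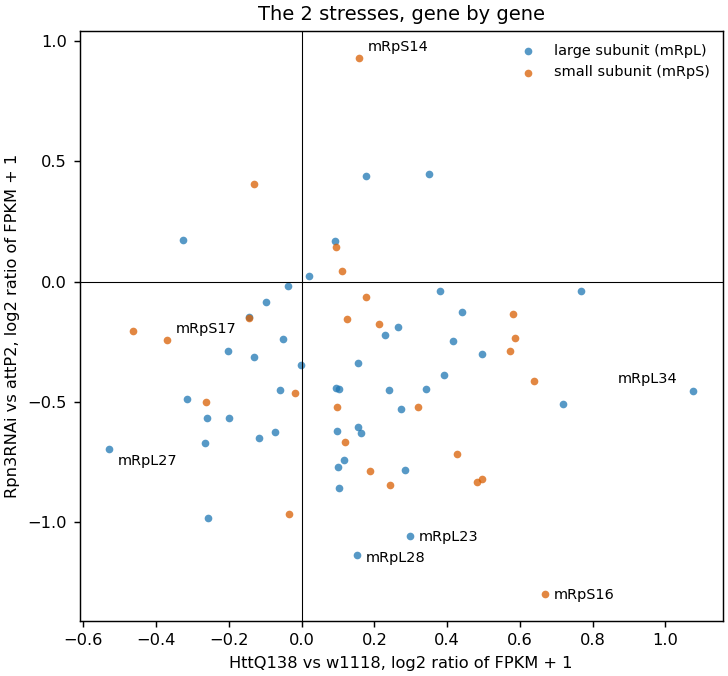
log2 ratio of FPKM + 1 of each member in HttQ138 against w1118 (horizontal) and in Rpn3RNAi against attP2 (vertical), in blue for the large and orange for the small subunit. The lower right field holds 41 of the 72 members, with mRpS16 lowest at 0.67 and -1.30.

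When HttQ138 was added in the libraries labelled CncCRNAi, the family level was close to that of its control. The summed FPKM was 0.989 times that of CncCRNAi (0.956 to 1.02), with 0.988 (0.946 to 1.03) for the large and 0.992 (0.937 to 1.05) for the small subunit. The median log2 ratio was -0.01, against -0.11 over 5378 genes tested, with 35 members higher and 37 lower. At least 1.5-fold higher were 2 members, at a background of 4.74%, and at least 1.5-fold lower 1, at a background of 10.1%. The interval lay above 1 for 6, at a background of 13.8%, and below 1 for 2, at a background of 29.4%. No member passed 3-fold, at a background of 1.90%. No member had intervals on opposite sides of 1 with HttQ138 in w1118 and in CncCRNAi, as 4.73% of all genes did.

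The members past 1.5-fold there were mRpL9, mRpL11 and mRpL37. mRpL9 was at 22.1 FPKM in w1118 and 28.5 with HttQ138, 17.1 in CncCRNAi and 32.1 with HttQ138 added to it, and 12.4 in attP2 against 17.2 with Rpn3RNAi. Both HttQ138 libraries were its highest, with ratios of 1.88 (1.25 to 2.85) in the libraries labelled CncCRNAi and 1.29 (0.856 to 1.95) without. mRpL11 was at 12.1 FPKM in CncCRNAi, and at 20.5 when HttQ138 was added, a ratio of 1.70 (1.01 to 2.93). mRpL37, which has no bacterial homologue, was at 30.3 FPKM in w1118 and 36.8 with HttQ138, 72.4 in CncCRNAi and 45.8 with HttQ138 added to it, and 36.6 in attP2 against 25.1 with Rpn3RNAi. Its CncCRNAi library stood apart from the other 5, and the ratio of 0.633 (0.527 to 0.760) turns on that control. mRpS35 was higher with HttQ138 in both backgrounds, by 1.53 times (1.05 to 2.26) and 1.42 times (1.02 to 1.99).

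The controls were also compared with each other. They are not replicates, since they differ in genotype, CncCRNAi carries an RNAi transgene, and attP2 also differs in time after the temperature shift. Their spread holds these differences along with any replicate error, so it does not estimate replicate error. The library labelled CncCRNAi had 56 members above and 16 below w1118, with 10 at least 1.5-fold higher, at a background of 17.9%, and 0 at least 1.5-fold lower, at a background of 7.77%. Its median log2 ratio of 0.15 was close to the 0.12 of all genes tested. The largest steps were those of mRpL37, at 2.39 (1.92 to 3.00), mRpS14, at 2.12 (1.16 to 4.08), and mRpS10, at 2.03 (1.34 to 3.13), and the lowest interval that of mRpS28, at 0.718 (0.567 to 0.908).

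attP2 and w1118 held nearly the same mRp sum, 0.981 (0.944 to 1.02). Of the 71 members tested, 2 were at least 1.5-fold higher in attP2, at a background of 14.2%, and 5 at least 1.5-fold lower, at a background of 8.34%, which became 10 and 2 with FPKM scaled to a common sum, at backgrounds of 24.5% and 5.69%. As deposited these were mRpL28 and mRpS10 on the higher side, and mRpL9, mRpL36, mRpL48, mRpL50 and mRpL17 on the lower. mRpL48 was at 43.3 FPKM in w1118 and 26.6 in attP2, a ratio of 0.613 (0.426 to 0.877). Genotype and time at 29 °C both differ between these controls and cannot be told apart. Against CncCRNAi, attP2 held 0.841 of the sum (0.811 to 0.872), with 1 member at least 1.5-fold higher, at a background of 5.72%, and 11 at least 1.5-fold lower, at a background of 12.3%. The lowest of these ratios was that of mRpS14, at 0.350 (0.175 to 0.661).

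Other properties that the symbol did not use were set against the ratios, all chosen after the values were seen. The 45 members with a homologue in bacteria and the 27 without had medians of -0.45 and -0.39 in Rpn3RNAi against attP2, and of 0.12 each in HttQ138 against w1118. Split in 3 by transcript length, the members had medians of -0.37, -0.48 and -0.38 in Rpn3RNAi, from the 24 shortest to the 24 longest. The 42 members that share exon bases with another gene in release 6 had a median of -0.45 there, and the other 30 one of -0.43.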

How the data were processed

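The authors mapped 150 bp paired-end MiSeq reads of sorted cells to the Drosophila genome (release 5.75 as stated) by the Tuxedo suite, and the deposited values are FPKM for each gene. Tool versions and library strand are not given in the sources used here. All 6 libraries, 1 per condition, and all 15603 genes were used as deposited. The members and lists were chosen with earlier results of these data known.

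Log2 ratios were taken of FPKM + 1. A pseudocount of 1 understates changes of low genes. Counts of 1.5-fold changes left out genes whose mean over the 2 libraries was under 10 FPKM. Depth was recovered from low FPKM values of 5890 genes with 1 transcript, with lengths from release 6 (annotation 115) reduced by 155 nt. Of 6389 low values, 84.2% lay within 0.1 of a whole fragment. Counting intervals used these estimated fragments where at least 200 nt of length remained, and intervals of summed levels weighted members by their share. The script was tested on simulated data. Named members were the 3 highest and 3 lowest by mean in each subunit, the 3 largest rises and falls in each comparison, and members of set roles. mRpS5 and mRpS34 were matched to the reference by symbol only. The gene qm, first listed among cytosolic ribosomal proteins, is not one and was left out. Python 3.11.15, pandas 2.3.3 and scipy 1.17.1 were used. Alternatives were other pseudocounts, filters, folds, scalings and controls, and, added after seeing the data, the members without overlap.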

Additional observations from a re-analysis of the deposited data

Results flagged for a closer look

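The family values for HttQ138 lay on different sides of no change in the 2 backgrounds, but the second was so close to it that no opposite direction is shown. The median log2 ratio was 0.12 without and -0.01 with the label CncCRNAi, a difference of 0.13. The summed FPKM was 1.10 and 0.989 times that of the respective control, 1.11 times as large a ratio in the first case. The counting interval of the second, 0.956 to 1.02, holds 1, and the large subunit median there was 0.01. With 1 library per condition the difference was not tested. Both medians were above those of all genes tested, by 0.20 and 0.10, and with median-of-ratios scaling both medians were above 0, at 0.21 and 0.07. The w1118 library, the denominator of the first ratio, held the lower mRp sum of the 2 controls, at 2737 FPKM against 3192.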

How the results depend on the processing

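Values were compared with the half-width of the counting interval, and counts with a factor of 1.5. For a fold of 2, a 99% interval and members without overlap, the share of all genes was not computed. Under other scalings it was computed only for Rpn3RNAi against attP2 and, at a common sum, for attP2 against w1118. Counts without that share show how the calls change with the setting, not whether members differ from other genes. The family median for Rpn3RNAi against attP2 was below 0 in every alternative run. It was -0.33 with a pseudocount of 10 or with FPKM scaled to a common sum (-0.328 and -0.326 to 3 digits), -0.28 with median-of-ratios scaling, -0.36 against w1118 and -0.62 against CncCRNAi. The ratio of sums became 0.822 and 0.848 with these 2 scalings, the 24 members at least 1.5-fold lower became 15 and 13, and the 1 higher became 3 and 4. A fold of 2 left 5 lower, the members without overlap gave 9 lower and 0 higher, and a 99% interval left 14 in place of 24.

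For HttQ138 against w1118 the median was 0.18 at a common sum, 0.21 with median-of-ratios scaling and 0.0597 without overlapping members, and the ratio of sums 1.15 and 1.17 with the 2 scalings. Against CncCRNAi, as deposited, the sign turned, to -0.0649 for all members, -0.13 for the large and -0.0104 for the small subunit, by the change of control. A fold of 2 left 1 higher, the members without overlap 2, and a 99% interval 5 in place of 10.

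For CncCRNAi+HttQ138 against CncCRNAi the median was 0.0734 with median-of-ratios scaling, 0.20 against w1118 and 0.17 against attP2, and the ratio of sums 1.05 with that scaling. Of the 2 higher and 1 lower, 0 and 0 passed a fold of 2, median-of-ratios scaling gave 4 and 0, and 0 higher were without overlap. A 99% interval left 2 in place of 8.

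Between controls, the CncCRNAi to w1118 median was 0.23 at a common sum, 0.0134 with median-of-ratios scaling and 0.0161 without the 100 highest genes and small RNAs, with ratios of sums of 1.23, 1.06 and 1.06. The small subunit median turned to -0.0056 and -0.0028 with the last 2. Of 10 higher, a fold of 2 left 3, median-of-ratios scaling 6 and the absence of overlap 3, and that scaling gave 1 lower in place of 0. The attP2 to w1118 median was 0.14, -0.13 and -0.17 with the same 3 scalings, and the ratio of sums 1.12, 0.924 and 0.901. A fold of 2 left 0 and 0 of the 2 higher and 5 lower, scaling to a common sum gave 10 and 2, and members without overlap 1 and 1. The attP2 to CncCRNAi median was -0.15 at a common sum and -0.20 with median-of-ratios scaling, with ratios of sums of 0.909 and 0.875. A fold of 2 left 0 higher and 1 lower in place of 1 and 11, both scalings gave 2 higher, and members without overlap 0 and 5.

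Under both scalings, the ratios of named members that have a counting interval stayed within it, while mRpL33 and mRpL34 have none. No paired analysis was possible because each condition has 1 library. Depth limits single members, since as few as 14 fragments lay behind the lowest levels. The cause of the shifts between scalings was not tested.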
